A study of Mus musculus with 2 samples.

Results

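Cholesterol synthesis was described through 7 genes that were chosen by name, without a threshold on measured values. They are Srebf2 and Insig1, which set the activity of the pathway, and Hmgcs1, Idi1, Fdft1, Sqle and Lss, which encode enzymes of it. All 7 were found among the 43346 Ensembl genes of both deposited gene tables, with 21 annotated transcripts in the transcript tables. None of the 7 encodes a receptor that takes up lipoproteins, so uptake was read from a separate list of genes.

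The tissue was the gonadal fat pad, white fat that lies along the gonads. It came from adult mice of C57BL/6J, an inbred laboratory strain, at the age of 8 weeks. There was 1 group of 2 libraries, numbered 1 and 2 as biological replicates, and the labels name no treatment and give the health state as unknown. Both carry the same donor identifier, males and females of a litter were pooled per the labels, and the number of mice is not given. No condition was compared and no p-value exists. The spread between the libraries is the only error, and it may be technical.

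Cells make cholesterol from acetyl-CoA through mevalonate, isoprenoid units, squalene and lanosterol. When membrane sterol is low, the escort protein SCAP carries the SREBP-2 precursor out of the endoplasmic reticulum, and the released SREBP-2 switches on nearly all enzymes of the route. When sterol is plentiful, INSIG proteins hold SCAP back. Adipocytes keep a large pool of unesterified cholesterol in their lipid droplets and also take it up from lipoproteins.

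The labelled tissue held its markers together with those of a neighbouring organ. All 8 adipocyte markers were expressed, at a summed level of 7303 TPM (a level normalised for transcript length and library depth) in replicate 1 and 9008 TPM in replicate 2. Of these 8, 3 passed 1.5-fold with replicate 2 higher (Adipoq, Cidec and Lep), while the median marker was at 710.5 and 697.3 TPM. All 8 markers of epididymal epithelium were expressed as well, at 33046 and 22487 TPM, and 4 of them passed 1.5-fold with replicate 1 higher and 1 with replicate 2 higher on the TPM scale, where 14.8% and 4.89% of all genes tested did. With TMM scaling of counts that was 1 in each direction, Lcn8 and Crisp1, while the same 3 adipocyte markers passed. Markers of macrophages summed to 169.9 and 169.8 TPM, and those of spermatids to 506.1 and 339.5 TPM. The median macrophage marker was at 29.5 and 24.4 TPM. On TPM, 4 of the 5 macrophage markers were lower in replicate 2, as were 65.0% of genes whose mean reached 1 TPM. Of the 5 markers of steroid-making cells, which summed to 51.5 and 32.5 TPM, only 2 were expressed. Cyp17a1 was at 18.8 and 23.6 TPM and Insl3 at 31.0 and 8.13 TPM, in opposite directions. Star, Cyp11a1 and Hsd3b1 stayed below 1 TPM in both libraries. The 4 hepatocyte markers summed to 51.7 and 5.20 TPM, with Alb, which encodes albumin, at 31.6 and 3.54 TPM and Cyp7a1 listed at 0 in both. Xist, the RNA of the inactive X chromosome, had 18 and 4 fragments (0.03 and 0.00 TPM) although the labels give a pool of males and females. The Y chromosome genes listed beside it were expressed in both libraries. Ddx3y was at 6.70 and 6.73 TPM, Eif2s3y at 10.5 and 16.9 TPM and Kdm5d at 7.94 and 8.25 TPM. Bulk RNA does not tell which of these cells carried a transcript, and fewer cells of a type cannot be told apart from less RNA per cell. The expected counts (estimated fragments) summed to 48206393 in replicate 1 and 55138711 in replicate 2.

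Each of the 7 genes reached 1 TPM in both libraries, the limit used here for expression, which 33.0% of all Ensembl genes and 61.6% of protein-coding genes reached. The 2 regulators stood above the 5 enzymes. For each gene the TPM of replicate 1 is given first, with the authors' deposited interval in brackets where given. The file headers do not name the level of that interval, and it covers the estimate within a library only.

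**Figure D1:**
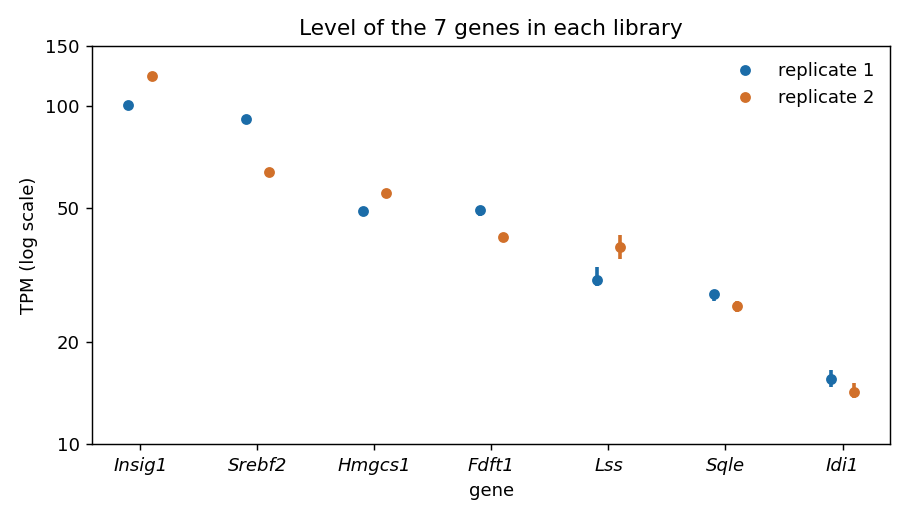
TPM of the 7 genes (log axis) in replicate 1 (blue) and replicate 2 (orange), ordered by mean, with the deposited TPM interval as a vertical line where it is wider than the point. Insig1 is the highest gene in both libraries, at 100.5 and 122.2 TPM, and Idi1 the lowest, at 15.6 and 14.3 TPM, while Hmgcs1 and Fdft1 change places.

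Srebf2 encodes SREBP-2, the membrane-bound transcription factor that turns on sterol synthesis genes (ENSMUSG00000022463.7, chromosome 15, 82147181 to 82205379, plus strand, mm10). It stood at 91.0 TPM [88.7 to 91.4] in replicate 1 and 63.6 TPM [62.0 to 64.1] in replicate 2, from 16197 and 14077 fragments. Replicate 1 was the higher library, by 1.43-fold, and the intervals did not overlap. This was the widest gap between the libraries among the 7 genes on the TPM scale, though with TMM scaling of counts Insig1 was wider. For Srebf2 the log2 ratio of (TPM + 1), replicate 2 over replicate 1, was -0.51.

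Insig1 encodes a membrane protein that holds SCAP in the endoplasmic reticulum and is itself a target of SREBP (ENSMUSG00000045294.10, chromosome 5, 28071363 to 28078662, plus strand, mm10). It stood at 100.5 TPM [97.4 to 101.5] and 122.2 TPM [119.0 to 123.0], from 9293 and 14037 fragments. Replicate 2 was the higher library, by 1.22-fold, so the 2 regulators differed between the libraries in opposite directions. The level of Insig1 was 1.10 times that of Srebf2 in replicate 1 and 1.92 times in replicate 2.

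The relatives and partners of these regulators gave a further comparison. Insig2, the related gene that is not induced by SREBP in the same way, was at 26.8 TPM [26.2 to 64.0] and 30.4 TPM [29.5 to 88.8]. Insig1 stood 3.75 and 4.02 times as high on these values, and 2.45 and 2.38 times as high on the deposited posterior mean TPM, so the ratio is uncertain. Srebf1, which encodes the related factors that favour fatty acid synthesis, was at 320.2 and 304.9 TPM, and Srebf2 came to 0.28 and 0.21 of that level. Scap was at 36.0 and 25.4 TPM. Srebf2 stood 2.53 and 2.51 times above Scap, so these partners kept nearly the same proportion while both were lower in replicate 2. Insig2 and Scap were set beside the members after their values were seen.

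Promoter sequences bear on the regulators because SREBP acts through short sterol elements, usually beside sites of the CCAAT-binding factor NF-Y. RefSeq windows of 300 bases (250 before to 50 after the start site, GRCm38.p6) were matched for 5 of the 7 genes by symbol, and Fdft1 and Sqle had no entry. Of the bases upstream of both the RefSeq and the GENCODE start, those of 3 genes are shown. They are the genes whose windows held the letters TCACNCCA, the core of a sterol element, or CACGTG, an E-box that SREBP can also bind. Capitals mark TCACNCCA, CACGTG and CCAAT on either strand (CCAAT reads ATTGG on the other strand), and no capitals of 2 motifs overlap.
Srebf2, chr15:82147019-82147180, plus strand: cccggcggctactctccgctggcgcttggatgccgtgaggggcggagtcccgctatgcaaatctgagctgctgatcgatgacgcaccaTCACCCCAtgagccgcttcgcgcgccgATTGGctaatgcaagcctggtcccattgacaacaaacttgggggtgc
Hmgcs1, chr13:119690101-119690350, plus strand: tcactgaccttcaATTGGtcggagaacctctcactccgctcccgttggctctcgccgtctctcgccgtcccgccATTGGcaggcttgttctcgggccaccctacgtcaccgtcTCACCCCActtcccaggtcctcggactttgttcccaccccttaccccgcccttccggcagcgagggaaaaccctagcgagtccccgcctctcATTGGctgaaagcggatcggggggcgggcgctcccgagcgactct
Insig1, chr5:28071162-28071362, plus strand: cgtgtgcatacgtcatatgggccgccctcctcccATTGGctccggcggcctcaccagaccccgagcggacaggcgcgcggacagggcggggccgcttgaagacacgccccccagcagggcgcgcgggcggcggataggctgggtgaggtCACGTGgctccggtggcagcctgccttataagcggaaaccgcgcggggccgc

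Counted from the RefSeq start site, TCACCCCA lay at -162 to -155 in Srebf2 and at -137 to -130 in Hmgcs1, on the strand of the gene in both. The nearest ATTGG began at -135 in Srebf2. TCACNCCA was found in 2 of the 5 windows and in 4.36% of 32851 RefSeq promoter windows, searched on both strands. A longer form of the element, which contains this core, was in none of the 5 and in 0.0913% of all. CACGTG was in 1 of the 5, Insig1, at -101 to -96, and in 7.15% of all. CCAAT was in all 5 and in 37.4% of all, and the GC box GGGCGG was in all 5 and in 35.7% of all. Srebf2 and Hmgcs1, which share the sterol element letters, differed between the libraries in opposite directions. The part of these letters in the levels was not tested, and 2 libraries of 1 group hold no contrast in sterol. A match describes letters and does not show binding.

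Srebf2 also hosts the hairpin of miR-33, a microRNA known to lower cholesterol efflux genes, in intron 16 of Srebf2-201. Its RefSeq mature form, at chr15:82198127-82198147 on the plus strand, is shown because it is made from the same primary transcript. The seed, bases 2 to 8, is in capitals.
mmu-miR-33-5p: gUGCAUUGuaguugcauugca

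The row of the Mir33 hairpin was listed at 0 in both libraries and had an effective length of 0, so its level could not be read from these libraries.

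Hmgcs1 encodes the cytosolic HMG-CoA synthase at the start of the mevalonate route (ENSMUSG00000093930.1, chromosome 13, 119690379 to 119708260, plus strand). It stood at 48.9 TPM [47.1 to 49.7] and 55.3 TPM [53.5 to 56.0], from 5500 and 7723 fragments. Replicate 2 was higher by 1.13-fold and the intervals did not overlap.

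Idi1 encodes the isomerase that interconverts the C5 isoprenoid units (ENSMUSG00000058258.10, chromosome 13, 8885501 to 8892451, plus strand). It was the lowest of the 7, at 15.6 TPM [14.8 to 16.5] and 14.3 TPM [13.7 to 15.1], from 1579 and 1858 fragments. The intervals overlapped, for this gene alone among the 7, so the libraries were not set apart here even by the error of the estimate.

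Fdft1 encodes squalene synthase, which joins farnesyl units and commits them to sterols (ENSMUSG00000021273.9, chromosome 14, 63145150 to 63179578, minus strand). It stood at 49.2 TPM [47.3 to 50.0] and 40.9 TPM [39.4 to 41.7], from 4846 and 5010 fragments. Replicate 1 was higher by 1.20-fold. The gene overlaps Ctsb, the cathepsin B gene on the opposite strand, over 774 bases, and Ctsb was at 258.3 and 384.3 TPM. The labels describe strand-specific libraries, but whether the counting used strand is not given in the sources used here.

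Sqle encodes squalene epoxidase, an oxygen-requiring and rate-limiting step (ENSMUSG00000022351.10, chromosome 15, 59315077 to 59331192, plus strand). It stood at 27.8 TPM [26.5 to 28.6] and 25.7 TPM [24.6 to 26.4], from 2666 and 3060 fragments. The gap was 1.08-fold, and the intervals came close without overlap.

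Lss encodes lanosterol synthase, which closes the rings of the first sterol (ENSMUSG00000033105.8, chromosome 10, 76531588 to 76557138, plus strand). It stood at 30.5 TPM [29.3 to 33.5] and 38.2 TPM [35.3 to 41.6], from 4857 and 6531 fragments. Replicate 2 was higher by 1.26-fold, the widest gap among the 5 enzymes on the TPM scale, though with TMM scaling of counts Hmgcs1 was wider. Its intervals were also the widest of the 7 relative to the level.

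By mean TPM the order was Insig1, Srebf2, Hmgcs1, Fdft1, Lss, Sqle and Idi1. Neighbours in this order had ranges over the libraries that did not overlap, except Hmgcs1 and Fdft1, which exchanged places between the libraries. The highest gene stood 6.45 and 8.54 times above the lowest. Among the 14303 expressed genes, Insig1 ranked 1326 and 1009, and Idi1 ranked 6767 and 6662. The summed TPM of the 7 genes was 363.4 and 360.2, so the opposite differences of single genes nearly balanced. The 5 enzymes alone summed to 171.9 and 174.4 TPM.

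The differences between the libraries need a reference, because the TPM ratio of most genes lay below 1. The median log2 ratio was -0.12 over the 14875 genes whose mean reached 1 TPM, and 65.0% of them were below 0. After TMM scaling of counts that median was 0.01. Relative to the median of all genes, Lss stood at 0.44, Insig1 at 0.40, Hmgcs1 at 0.29, Idi1 and Sqle at 0.01, Fdft1 at -0.14 and Srebf2 at -0.39. With TMM scaling the log2 ratios were 0.27 for Lss, 0.44 for Insig1, 0.33 for Hmgcs1, -0.10 for Fdft1 and -0.36 for Srebf2. Idi1 and Sqle had a log2 ratio of -0.11 each on the TPM scale and of 0.08 and 0.04 with TMM scaling, so no direction could be given for these 2 genes.

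**Figure D2:**
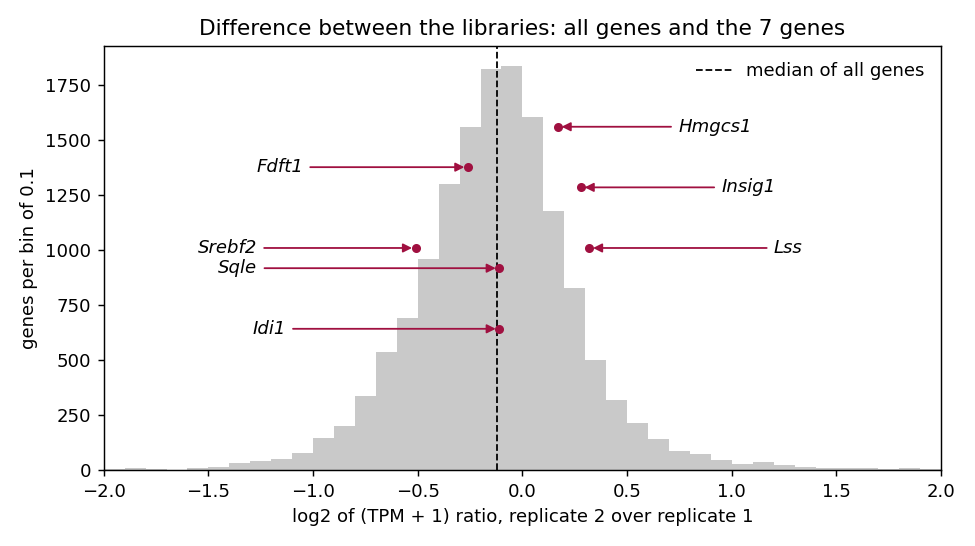
Histogram of the log2 ratio of (TPM + 1), replicate 2 over replicate 1, in bins of 0.1 for the 14875 genes whose mean reached 1 TPM, with the 7 genes marked at their ratio. The height of a mark has no meaning, genes beyond 2 in either direction are not drawn, and all 7 genes lie inside the bulk of the distribution, from -0.51 for Srebf2 to 0.32 for Lss.

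None of the 7 genes passed 1.5-fold between the libraries in either direction. Of 14672 genes whose mean reached 1 TPM and a count of 20, 4.89% passed it with replicate 2 higher and 14.8% with replicate 1 higher, together 19.6%. Replicate 2 was the higher library in 24.9% of those calls on TPM and in 45.4% with TMM scaling. The limit of 2-fold was passed by 1.89% and 3.71% and by none of the 7. By position in the distribution, Srebf2 lay at the 14.2th percentile of log2 ratios and Lss, the other end of the 7, at the 90.0th. The intervals were apart for 3 genes with replicate 2 higher (Insig1, Hmgcs1 and Lss) and for 3 with replicate 1 higher (Srebf2, Fdft1 and Sqle). The same held for 14.9% and 37.6% of the 14672 genes, so 6 of 7 compares with 52.4% of genes in either direction. Intervals narrow with the number of fragments, and the 7 genes had 1579 fragments or more in each library.

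The transcript tables listed 1 transcript each for Srebf2, Insig1, Hmgcs1 and Fdft1. Idi1 had 5, Sqle 4 and Lss 8. In these 3 genes the same protein-coding transcript led in both libraries. Over 10345 genes with several transcripts whose mean reached 1 TPM, the leading transcript differed between the libraries in 12.4%. Idi1-201 carried 96.0% and 99.6% of the TPM of Idi1, and Sqle-201 carried 97.6% and 96.9% of that of Sqle. No other form of either gene reached 5% in a library.

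Lss was the exception among the 7, with several forms. Its coding form Lss-201 has 22 exons and was at 21.3 and 24.1 TPM, which is 70.1% and 63.0% of the gene. Its share of TPM fell by 7.06 points from replicate 1 to replicate 2, but its share of fragments was higher in replicate 2, at 72.9% and 76.1%, so the direction depends on the measure. By TPM, 49.3% of the genes with several transcripts moved by over 5 points. The retained-intron forms Lss-207 and Lss-206 held 12.6% and 10.2%, and 6.36% and 5.06%. These forms keep intron sequence and are annotated as not coding.

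The short form Lss-205 made up most of the TPM gap between the libraries in Lss. This retained-intron form of 425 nt (chromosome 10, 76552271 to 76553233) was at 0.49 TPM [0.00 to 2.61] and 5.74 TPM [2.87 to 8.65], which is 1.60% and 15.0% of the gene. It rested on 4 and 54 fragments. Its effective length, the number of positions a fragment can start from, was 208.6 and 201.6 nt, against 4450.5 and 4443.5 nt for Lss-201, so each fragment weighed far more in TPM. By fragments it held 0.0824% and 0.827% of the gene. It made up 67.7% of the TPM difference of the gene, and Lss-201 made up 35.4%, while Lss-204, Lss-202 and Lss-206 went the other way. The antisense gene 4930483K19Rik, which overlaps Lss, was listed at 0 in both libraries. Without Lss-205 the gene was at 30.0 and 32.5 TPM, a ratio of 1.08 and a log2 ratio of 0.11. Lss-201 alone had a ratio of 1.13, the same as that of Hmgcs1.

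**Figure D3:**
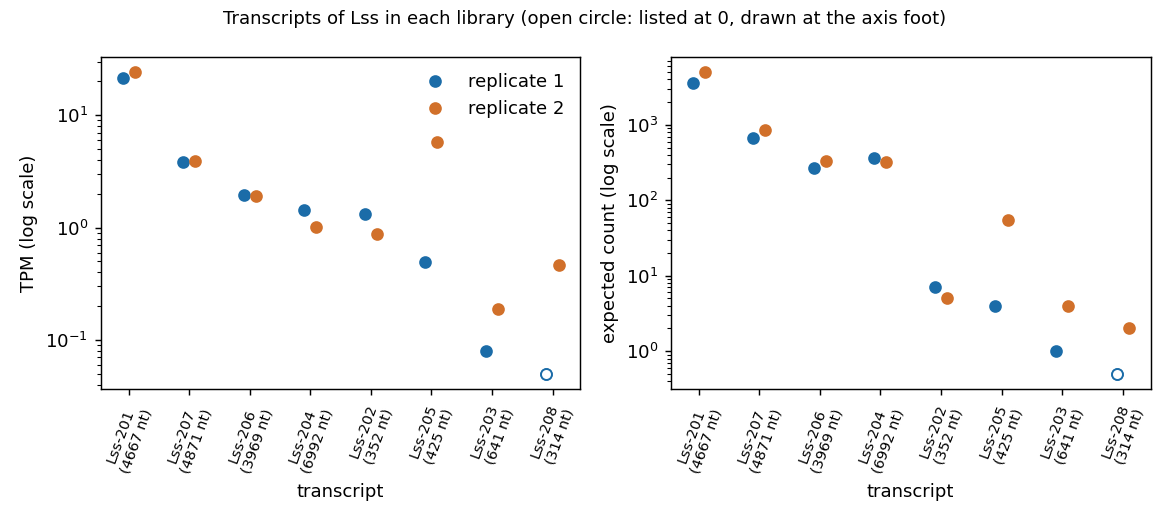
The 8 transcripts of Lss by TPM (left, log axis) and by expected count (right, log axis) in replicate 1 (blue) and replicate 2 (orange), with lengths under the names and open circles at the foot for forms listed at 0. Lss-205 goes from 0.49 to 5.74 TPM on 4 and 54 fragments, while the coding form Lss-201 holds 3541 and 4971 fragments.

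Sequence shared with other genes bore on Idi1 and Fdft1. Of the distinct stretches of 76 bases (the read length) in Idi1-201, 20.6% also occurred in annotated transcripts of 4 other genes, Gm13502, Gm7654, Gm35570 and Gm8911. Gm13502, a processed pseudogene, was listed at 0 and 0.21 TPM, from 0 and 4 fragments, and Gm7654 at 0 in both. Gm35570 and Gm8911 were not analysed here. In Fdft1-201 the share was 7.68%, all with the processed pseudogene Gm6781, which had 12 and 7 fragments. In Insig1-201 it was 0.839%, with Gm37784, listed at 0 in both. Srebf2, Hmgcs1, Sqle and Lss shared none. The pseudogenes measured thus held few fragments beside the 1579 or more of Idi1 and the 4846 or more of Fdft1, although the split of shared reads is uncertain.

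The other enzymes of the route were read from a list of 17, which does not hold every enzyme and includes the branch enzyme Ggps1. All 17 were expressed. Their median level was 36.8 and 37.9 TPM, against 48.9 and 40.9 TPM for the 7 genes, which include the 2 regulators. Lss, the middle one of the 5 member enzymes in both libraries, was at 30.5 and 38.2 TPM. The member enzymes thus did not stand above the 17 in both libraries. Fdps, which makes farnesyl diphosphate between the steps of Idi1 and Fdft1, was the highest at 146.1 and 158.4 TPM. Tm7sf2, a sterol reductase, was at 83.9 and 92.9 TPM and Acat2, which condenses acetyl-CoA, at 76.1 and 65.1 TPM. Ggps1, which leads away from sterols to geranylgeranyl diphosphate, was the lowest at 3.93 and 4.24 TPM.

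**Figure D4:**
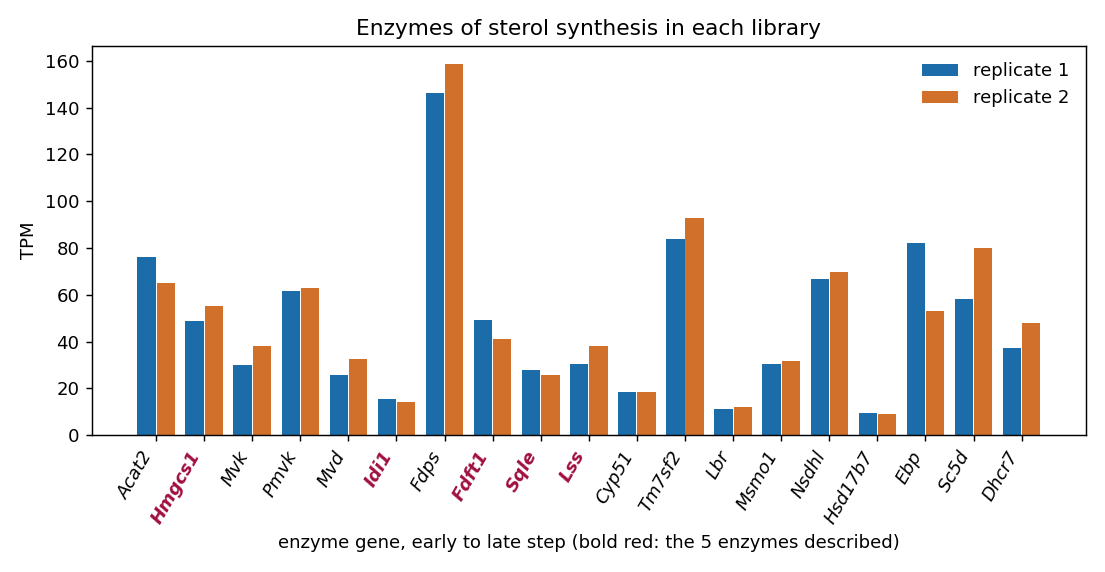
TPM of 19 enzyme genes of sterol synthesis in replicate 1 (blue) and replicate 2 (orange), from early to late steps, with the 5 described enzymes named in bold red. Not every listed enzyme is drawn. Fdps is the highest at 146.1 and 158.4 TPM, and the orange bar is the higher one for most late steps, with Ebp at 82.3 and 53.1 TPM and Hsd17b7 as exceptions.

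For most of these 17 enzymes the ratio lay above that of the typical gene. Their median log2 ratio was 0.09, against -0.11 for the 7 genes and -0.12 for all genes. The ratio lay above the median of all genes for 15 of the 17 and for 5 of the 7, where 50.0% of all genes do. Both counts were the same with TMM scaling. The 5 include the regulator Insig1, and also Idi1 and Sqle, which lay only 0.01 above that median on TPM. The count for the 7 is thus not read as an excess. Ebp, a sterol isomerase, was at 82.3 and 53.1 TPM and passed 1.5-fold with replicate 1 higher on the TPM scale (log2 ratio -0.62) but not with TMM scaling (-0.34). With TMM scaling Dhcr7 (0.74) and Sc5d (0.60), enzymes of late steps, passed it with replicate 2 higher. Relative to the median of all genes on TPM, Dhcr7 stood at 0.46, which does not pass 1.5-fold. Ebp, Dhcr7 and Sc5d were named after their values were seen. Over the same pair of libraries the adipocyte markers summed higher in replicate 2, and those of epididymis, hepatocytes and spermatids summed higher in replicate 1. The sums hid a split within the lists. On TPM, 4 of the 8 adipocyte markers were higher and 4 lower in replicate 2. Of the 8 epididymal markers, 2 were higher and 6 lower. The part of these cell types in the ratios of the sterol genes was not tested.

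Of the 14 genes of sterol sensing and regulation 13 were expressed, and the median log2 ratio was -0.18, with 6 of 13 above the median of all genes (4 of 13 with TMM scaling). After Srebf1, the highest was Nr1h2, which encodes a liver X receptor that senses oxysterols, at 133.1 and 115.4 TPM. Mbtps2, the protease that makes the second cut of SREBP, was at 9.49 and 5.92 TPM and passed 1.5-fold with replicate 1 higher on the TPM scale (log2 ratio -0.60) but not with TMM scaling (-0.37). With TMM scaling Nr1h3, the other liver X receptor gene, passed it with replicate 2 higher (0.69), and it was named after its value was seen.

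Genes of uptake, storage and efflux were read as a list of 9. All were expressed. The median level was 31.6 and 25.3 TPM and the median log2 ratio -0.21, with 4 of 9 above the median of all genes. Npc2, which hands cholesterol out of lysosomes, was at 836.7 and 811.6 TPM, above every enzyme of the route listed here. Which cell type carried it was not tested, and epididymal markers summed higher than adipocyte markers in both libraries. Scarb1, the receptor for high-density lipoprotein, was at 199.2 and 165.1 TPM. Lrp1, a large endocytic receptor, was at 142.0 and 76.1 TPM and was the only gene of the list past 1.5-fold, with replicate 1 higher, on the TPM scale (-0.89) and with TMM scaling (-0.85).

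Enzymes that use isoprenoids for products other than sterols formed a list of 10, all expressed. The median was 20.6 and 20.4 TPM and the median log2 ratio -0.15, with 4 of 10 above the median of all genes (6 of 10 with TMM scaling). Coq2, of ubiquinone synthesis, led at 85.2 and 73.5 TPM, followed by Dhdds, of dolichol synthesis, at 32.7 and 38.1 TPM and Rabggta, which prenylates Rab proteins, at 32.6 and 29.4 TPM. Pdss1, which makes the ubiquinone tail, was the lowest at 3.44 and 2.81 TPM. Pggt1b, a geranylgeranyl transferase subunit, was at 7.99 and 4.99 TPM and was the only one past 1.5-fold, with replicate 1 higher, on the TPM scale (-0.59), but not with TMM scaling (-0.48).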

How the data were processed

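Polyadenylated RNA longer than 200 nt was sequenced per the labels. Per the notes deposited with the files, the tables use mm10 and GENCODE M4. No quantifier is named in the labels (not given in the sources used here). The deposited tables gave, for each row, an expected count, TPM (its sum runs over every row, with the spike-ins), FPKM, the posterior mean TPM and an interval on TPM, and the transcript tables deposited the percent of the gene's TPM per transcript. Each gene table held 69691 rows; rows that are not Ensembl genes held 2.28% and 1.83% of counts and were left out. Symbols matched 42462 of 43346 genes. Positions and biotypes are from GENCODE M21 on mm10.

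Ratios used log2(TPM + 1), which understates differences of low genes. TMM scaling (edgeR 4.0.16) and DESeq2 1.42.0 size factors used rounded expected counts. Unlike TPM, these counts are not adjusted for transcript length, so the measures differ in more than scale. The 1.5-fold rule was tested on simulated data that held counting noise only. Without a spread between replicates, that test does not tell how often real replicates pass the rule. The members and lists were chosen with earlier results of these data known. Named genes were all members, their transcripts of 5% or more, genes overlapping them and, per list, the 3 highest, the lowest and the one of widest ratio; others are marked, and some genes that this rule names are not reported here. Junction and contig tables on mm9 were not used here.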

Additional observations from a re-analysis of the deposited data

How the results depend on the processing

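All 7 genes were expressed with thresholds of 0.5, 5 and 10 TPM, with posterior mean TPM, with FPKM and in each library alone, and none passed 1.5-fold under any scaling or count minimum tried. The count of all genes past 1.5-fold depended on the scaling. With replicate 1 higher it was 2166 on TPM, 1208 with TMM, 1173 with DESeq2 size factors, 1428 with FPKM and 1359 with TPM centred on the median of all genes. With replicate 2 higher it was 717 on TPM, 1006 with TMM, 1041 with DESeq2 size factors, 1039 with FPKM and 1095 with centred TPM. Replicate 2 was thus the higher library in 24.9% of these genes on TPM and in 45.4% with TMM. Among the pathway lists, Ebp, Mbtps2 and Pggt1b passed 1.5-fold on TPM and not with TMM, as did the epididymal markers Gpx5, Lcn5 and Spag11b, and Dhcr7, Sc5d and Nr1h3 the reverse. Relative to the median of all genes on TPM, Spag11b stood at -0.90 and Dhcr7 at 0.46. Their calls thus changed between TPM and counts and not by scale alone. A limit of 2-fold left 544 and 277. The median log2 ratio of the 7 genes was -0.11 on TPM, 0.08 with TMM, 0.09 with size factors and 0.01 with FPKM, against medians of all genes of -0.12, 0.01, 0.02 and -0.01. The centred TPM, the removal of Lss-205 and the posterior means of ratios between genes were chosen after seeing the data. The share of Lss-205 in Lss differed by 0.74 points by expected counts. The short forms of Lss rested on few fragments, which limits their values and, through Lss-205, the TPM gap of that gene. The TPM gap was 1.26-fold with Lss-205 and 1.08-fold without it. By fragments Lss-205 held only 0.0824% and 0.827% of the gene, and the log2 ratio of Lss with TMM scaling of counts was 0.27. The difference of Lss by counts thus did not rest on that form. No paired analysis was possible because there was 1 group.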
